A study of Mus musculus with 5 samples.

Results

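ANP32E occupancy in pressure-overloaded mouse heart was compared with that in sham-operated heart over all 8444 regions of the ANP32E chromatin immunoprecipitation table, which are 8444 of the 39542 regions of the series. The other 31098 regions are those of H2A.Z. The tested hearts came from 12-week-old male C57BL/6 mice, 4 days after transaortic coarctation (TAC), a surgical narrowing of the aorta. The comparison hearts came from sham-operated mice, which the labels give as the same strain, age and sex. Chromatin was taken from whole heart, so cardiomyocytes, fibroblasts, vascular cells and blood cells all contributed. Each condition had 1 ANP32E library, made with an anti-ANP32e antibody by a service company. The labels do not state how many hearts entered it, and the input library, labelled as pooled heart, was not used here. With 1 library per condition no test and no p-value is possible, and every difference below describes these libraries. In whole tissue, fewer cells of a type and less signal per cell cannot be told apart.

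ANP32E is a histone chaperone that binds the variant histone H2A.Z and removes it from nucleosomes, and it also inhibits protein phosphatase 2A (PP2A). H2A.Z sits at the nucleosomes flanking gene starts and at other regulatory elements. CpG islands, stretches of DNA rich in the dinucleotide CpG that mostly escape methylation, cover the promoters of most housekeeping genes and many developmental genes. Many genes of the differentiated cardiomyocyte have starts outside such islands. Early pressure overload is known for induction of immediate early genes, growth of cardiomyocytes and activation of fibroblasts.

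The difference between the libraries varied with how rich in CpG a region was. The 300 bases around the gene start (250 before it to 50 after it, RefSeq, GRCm38.p6, the assembly of mm10) are therefore shown for promoters at either end of the ranking, with CpG dinucleotides in capitals. The set holds the 3 highest and the 3 lowest promoter regions, among those in the stronger 50% of regions, that contained a RefSeq promoter of a listed gene. The 3 promoters with more signal in TAC than in sham were those of Tbc1d22b (chr17:29549552-29549851, plus strand, 21 CpG), encoding a Rab GTPase-activating protein family member, and of the transcripts AW046200 (chr8:57651503-57651802, plus strand, 17 CpG) and 4930509E16Rik (chr9:72531809-72532108, minus strand, 32 CpG).
AW046200: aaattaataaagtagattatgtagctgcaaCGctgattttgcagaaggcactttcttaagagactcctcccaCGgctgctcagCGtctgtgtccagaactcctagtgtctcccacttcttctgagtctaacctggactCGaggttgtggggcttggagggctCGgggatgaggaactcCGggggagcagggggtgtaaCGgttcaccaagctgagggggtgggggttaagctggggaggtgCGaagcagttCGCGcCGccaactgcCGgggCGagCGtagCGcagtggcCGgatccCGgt
Tbc1d22b: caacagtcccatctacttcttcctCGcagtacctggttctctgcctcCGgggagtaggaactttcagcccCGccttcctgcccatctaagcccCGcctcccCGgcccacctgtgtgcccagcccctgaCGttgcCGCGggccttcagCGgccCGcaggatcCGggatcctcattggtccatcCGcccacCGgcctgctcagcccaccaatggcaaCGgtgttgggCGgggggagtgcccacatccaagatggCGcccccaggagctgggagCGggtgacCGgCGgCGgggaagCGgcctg
4930509E16Rik: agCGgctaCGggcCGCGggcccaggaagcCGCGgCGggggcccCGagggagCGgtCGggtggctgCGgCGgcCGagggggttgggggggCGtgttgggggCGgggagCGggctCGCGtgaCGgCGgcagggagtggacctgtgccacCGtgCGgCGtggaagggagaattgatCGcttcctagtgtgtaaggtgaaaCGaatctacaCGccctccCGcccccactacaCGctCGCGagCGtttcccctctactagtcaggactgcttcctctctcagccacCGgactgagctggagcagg
The 3 with less signal in TAC were those of the splicing factor gene Prpf38a (chr4:108579287-108579586, minus strand, 25 CpG), the DNA single-strand break repair scaffold gene Xrcc1 (chr7:24546449-24546748, plus strand, 7 CpG) and the zinc finger gene Zfp384 (chr6:125008876-125009175, plus strand, 25 CpG).
Prpf38a: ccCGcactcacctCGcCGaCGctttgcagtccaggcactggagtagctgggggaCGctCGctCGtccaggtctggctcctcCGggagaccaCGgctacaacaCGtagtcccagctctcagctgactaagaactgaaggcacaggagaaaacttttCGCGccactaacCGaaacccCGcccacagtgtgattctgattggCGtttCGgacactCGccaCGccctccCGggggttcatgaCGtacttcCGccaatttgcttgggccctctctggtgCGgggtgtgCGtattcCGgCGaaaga
Xrcc1: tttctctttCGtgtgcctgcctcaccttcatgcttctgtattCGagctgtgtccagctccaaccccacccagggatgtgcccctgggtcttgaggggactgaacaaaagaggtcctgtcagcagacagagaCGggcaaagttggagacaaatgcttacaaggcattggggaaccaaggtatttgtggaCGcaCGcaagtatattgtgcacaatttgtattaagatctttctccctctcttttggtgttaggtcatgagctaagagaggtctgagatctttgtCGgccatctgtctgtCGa
Zfp384: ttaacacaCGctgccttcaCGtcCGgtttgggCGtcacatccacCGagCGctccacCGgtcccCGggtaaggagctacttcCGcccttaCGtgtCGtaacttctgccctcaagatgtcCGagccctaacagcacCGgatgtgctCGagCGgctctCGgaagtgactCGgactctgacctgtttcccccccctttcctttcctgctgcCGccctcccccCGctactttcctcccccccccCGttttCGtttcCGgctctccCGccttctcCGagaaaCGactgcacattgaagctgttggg
The average signal of these regions was 11.1 in TAC and 4.69 in sham at AW046200, 11.4 in TAC and 5.10 in sham at Tbc1d22b, and 11.1 in TAC and 5.63 in sham at 4930509E16Rik. It was 4.57 in TAC and 11.7 in sham at Prpf38a, 4.34 in TAC and 11.0 in sham at Xrcc1, and 6.19 in TAC and 14.3 in sham at Zfp384. All 6 regions overlapped a CpG island, and among these 6 the CpG numbers of the higher and the lower promoters overlapped. The windows of Xrcc1 and Zfp384 were set on a RefSeq start upstream of the start used for the listed distance.

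Over all promoter regions the ratio was higher where CpG content was higher, and much of this went with the calls. A promoter region is one whose distance to a listed gene start is at most 1000 bp or at most 50% of its length, and 3768 of 4685 (80.4%) overlapped a RefSeq promoter window. The ratio used throughout is log2((TAC + 1)/(sham + 1)), and "relative to the shift" means after subtraction of the median of all regions, which was -0.26. The median ratio was -0.41 for windows of 0 to 4 CpG (n = 75), -0.19 for 10 to 14 CpG (n = 442) and -0.08 for 30 or more CpG (n = 932). Relative to the shift these medians were -0.15, 0.08 and 0.18, so that the sign changed along the gradient. Called in sham only were 68.0% of the regions with 0 to 4 CpG and 30.0% of those with 30 or more. Among regions called in both libraries the medians lay closer, at -0.18, -0.07 and -0.06, all above the shift. Promoters at least 1.5-fold higher relative to the shift (n = 455) held a median of 24 CpG, those at least 1.5-fold lower (n = 89) held 15, all matched promoter regions held 23 and all 32817 RefSeq promoters held 7. The GC box GGGCGG, searched on both strands, lay in 72.3% of the higher and 47.2% of the lower windows, against 69.5% of all matched promoter regions and 35.6% of all RefSeq promoters. The TATA box TATAAA lay in 4.62% of the higher and 19.1% of the lower windows, against 7.06% of all matched promoter regions and 13.6% of all RefSeq promoters. A match of these letters is a description of the window and says nothing of a factor bound there.

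The signal at these regions was modest in both libraries. Average signal ran from 1.0 to 15.5 with a median of 7.42 in TAC, and from 1.46 to 18.5 with a median of 8.26 in sham. Peak signal, the deposited height of the highest point in whole numbers, had medians of 15 in TAC and 17 in sham. The authors marked 4220 regions as called in TAC and 7024 in sham, which leaves 1420 called in TAC only, 2800 in both and 4224 in sham only. A region is in the table because it was called in at least 1 library, so the excess of sham calls enters every median over all regions. How the values were scaled for depth is not stated, so a common offset between the libraries and a common difference in occupancy cannot be told apart. The ratios are therefore given raw and relative to the shift.

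Raw ratios of average signal had an interquartile range of -0.56 to 0.07. At least 1.5-fold higher in TAC were 419 regions (4.96%) and at least 1.5-fold lower were 2016 (23.9%). Relative to the shift 1046 (12.4%) were higher and 936 (11.1%) lower. Peak values gave 525 higher (6.22%) and 2490 lower (29.5%) raw, around a median of -0.29. Average and peak ratios had the same sign in 6872 regions (81.4%), with 292 past 1.5-fold upward and 1605 past it downward by both measures. They went past 1.5-fold in opposite directions in 1 region. Across regions, which share the same pair of libraries, the average and peak ratios had a Pearson r of 0.85 and a Spearman rho of 0.83.

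Regions without a CpG island were lower in TAC, and regions with an island were nearer to equal. The 3695 regions without an island had a median ratio of -0.52, with 137 higher and 1640 lower. The 4507 regions with 1 island stood at -0.12, including 269 higher and 373 lower, and the 242 regions with 2 or more islands had 0.04, with 13 higher and 3 lower. Relative to the shift the medians were -0.26 without an island, 0.14 with 1 and 0.30 with 2 or more, so regions with 1 island lay below 0 on the raw scale and above it on the other. In levels, island-free regions had medians of 5.43 in TAC and 7.80 in sham. Part of the contrast went with the calls. Called in sham only were 2744 of the island-free regions (74.3%) and 1480 of those with at least 1 island (31.2%). The difference between the medians of these classes was 0.42 over all regions and still 0.28 among regions called in sham only. Among regions called in both libraries the island classes stood closer, at -0.14 without an island, -0.09 with 1 and 0.01 with 2 or more. Among regions called in sham only they stood at -0.66 without an island and -0.38 with at least 1, and among those called in TAC only at 0.45 without and 0.40 with at least 1, where the order turned round.

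Position relative to genes also separated the regions. Promoter regions (n = 4685) stood at -0.14 raw and at 0.12 relative to the shift, and 214 of them were higher and 464 lower. Gene-body regions, which lie within a gene but away from its start (n = 1975), stood at -0.48 raw and at -0.22 relative to the shift, and 124 of them were higher and 830 lower. Regions beside genes (n = 814) had -0.39 and regions with no listed gene (n = 970) had -0.54. Within island-bearing regions the order of promoters and gene bodies was the other way round. The median was 0.06 over the 303 gene-body regions that held an island, of which 53 were higher and 23 lower, while the 4143 island-bearing promoter regions had -0.12, with 198 higher and 330 lower. Among regions called in both libraries promoters had -0.08 and gene bodies -0.07.

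**Figure D1:**
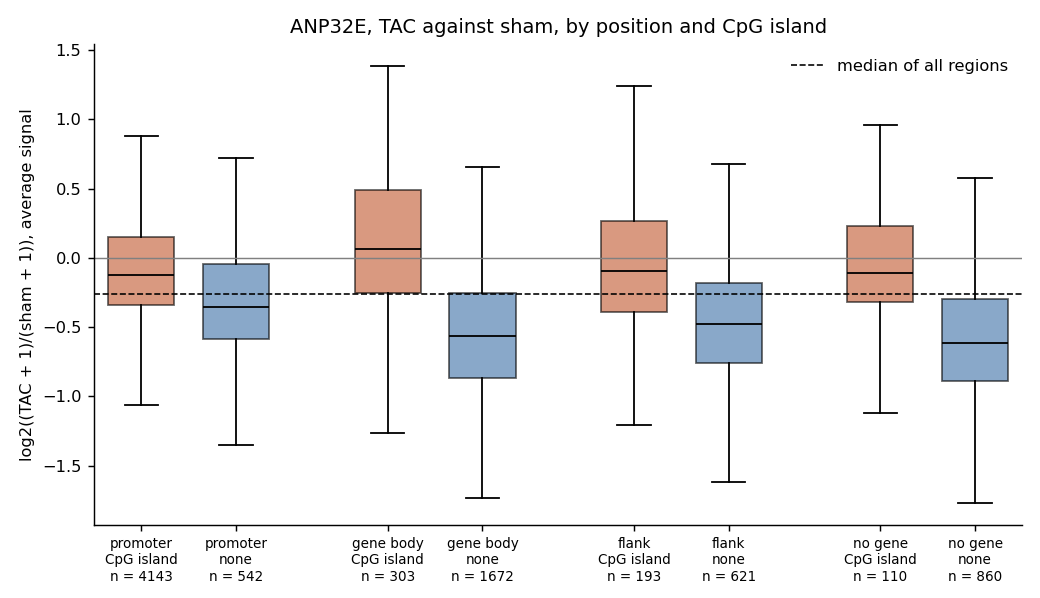
Log2 ratio of ANP32E average signal, TAC over sham, by position and CpG island; boxes span the interquartile range with the median as a line, whiskers reach 1.5 times that range, and the dashed line is the median of all regions at -0.26. Island-bearing classes (orange) sit near 0 and island-free classes (blue) below it, with island-free gene bodies at -0.56 and island-bearing gene bodies at 0.06.

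The signed distance to the nearest listed gene start placed the difference more closely. Island-bearing regions centred within 500 bp upstream of a start (n = 1669) had medians of 8.09 in TAC and 9.21 in sham, with a median ratio of -0.20, 37 higher and 181 lower. Those centred 500 to 2500 bp into a gene (n = 490) had medians of 8.85 in TAC and 7.47 in sham, with a median ratio of 0.21, 101 higher and 20 lower. Relative to the shift these ratios were 0.07 and 0.47. Peak values gave -0.22 upstream and 0.19 inside the gene. The 2 sets differed by 0.41 in average ratio, and by 0.15 among regions called in both libraries. From 2500 to 5000 bp into the gene the median was -0.03 (n = 48, or 0.24 relative to the shift), and from 5000 to 10000 bp it was -0.17 (n = 51, or 0.09 relative to the shift). On the upstream side, regions 500 to 2500 bp before a start (n = 423) had -0.05, or 0.21 relative to the shift. Raw medians of island-free regions were below 0 in every class before the start and in every class up to 50000 bp past it. The classes before the start reached less far. The highest median was -0.14 at 250 to 500 bp into genes (n = 57, but 0.12 relative to the shift). The lowest was -0.56 at 25000 to 50000 bp past the start (n = 343). Without regard to side, island-free medians stood at -0.63 at 50000 to 100000 bp (n = 343) and at -0.59 beyond that (n = 320).

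**Figure D2:**
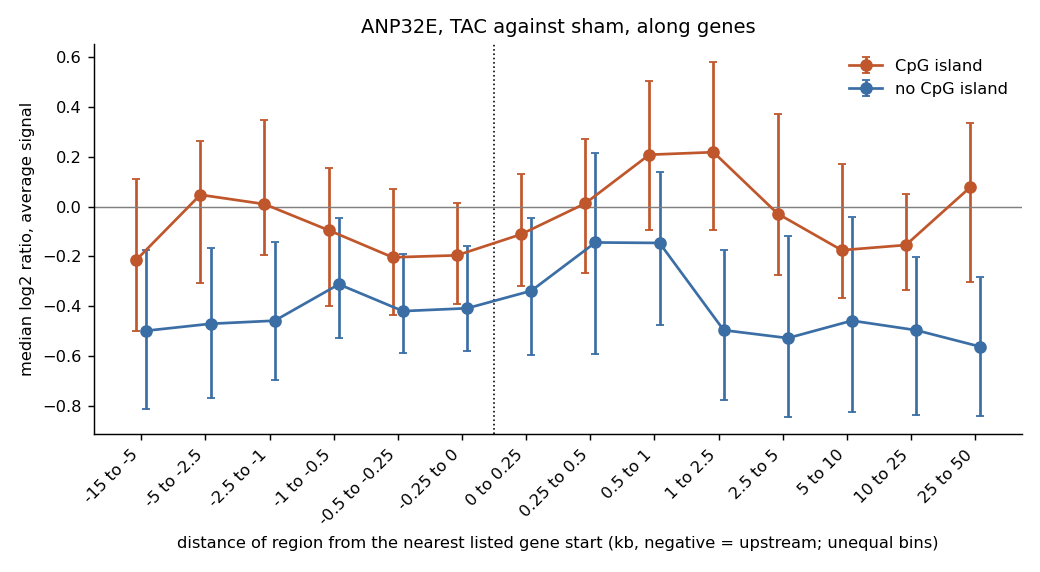
Median log2 ratio of ANP32E average signal, TAC over sham, in bins of signed distance from the nearest listed gene start (kb, unequal bins); points are medians, bars the interquartile range over regions, and the dotted line the gene start. Island-bearing regions (orange) reach 0.21 and 0.22 between 0.5 and 2.5 kb into the gene and stand at -0.20 just before the start, while island-free regions (blue) stay below 0.

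The 490 island-bearing regions 500 to 2500 bp into genes gave 101 of the 419 regions at least 1.5-fold higher in TAC. In the stronger 50% of regions, Zfpm1, encoding a GATA cofactor, had a region 1124 bp into the gene (chr8:122282574-122283956) with an average signal of 12.5 in TAC and 5.21 in sham (ratio 1.12). Ltc4s, encoding leukotriene C4 synthase, had one in the same 50%, 1353 bp from its start, at 10.4 in TAC and 5.21 in sham (0.88). Further regions were taken from the gene lists below without regard to strength. Klf4, a zinc finger transcription factor, had one at 1587 bp with 9.89 in TAC and 5.07 in sham (0.84). Ccnd1, encoding cyclin D1, had one at 1573 bp with 9.82 in TAC and 5.35 in sham (0.77), and Pdgfra, the platelet-derived growth factor receptor of fibroblasts, one at 1408 bp with 8.62 in TAC and 4.88 in sham (0.71). Uck2, encoding a uridine-cytidine kinase, had a weaker region at 1021 bp with 8.18 in TAC and 1.97 in sham (1.63). All 6 of these regions were called in TAC only, a choice that by itself favours higher values in TAC. That call was made for 44.1% of the 490 regions and for 16.8% of all regions. It was made for 11.1% of the island-bearing regions within 500 bp upstream of a start. The highest ratio in the stronger 50% was at Ago2, the argonaute of small RNA silencing, in a region 826 bp into the gene with 14 in TAC and 5.24 in sham (1.26), while a second Ago2 region, island-free and 47678 bp into the gene, had 5.12 in TAC and 8.48 in sham (-0.63).

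Islands far from any start lay lower. The 213 island-bearing regions more than 5000 bp from every listed start stood at -0.13 raw and at 0.13 relative to the shift, and 12 of them were higher and 21 lower. They ranged widely. Rbpj, the transcription factor of Notch signalling, had a region with 2 islands 34204 bp into the gene with 11.4 in TAC and 5.68 in sham (0.89), and Cdyl, a chromodomain protein, one at 82435 bp with 8.33 in TAC and 3.23 in sham (1.14). Pam, encoding a peptide-amidating enzyme, had one at 118746 bp with 2.42 in TAC and 7.20 in sham (-1.26).

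Length separated island-free regions and hardly the others. Across length quartiles from shortest to longest the median ratio was -0.46, -0.35, -0.23 and -0.09, and relative to the shift the last 2 were above 0. Island-free regions under 1000 bp (n = 294) had -0.78, with 20 higher and 193 lower, those of 2000 to 2500 bp (n = 395) had -0.36, and those of 4000 bp and over (n = 68) had -0.03, with 1 higher and 10 lower. Peak values over the same classes were -0.87, -0.33 and -0.14. Island-bearing regions had 0.20 under 1000 bp (n = 215), -0.09 at 2000 to 2500 bp (n = 849) and 0.07 at 4000 bp and over (n = 145), where the peak value gave -0.10. The share of regions called in both libraries moved with length, at 0.34% of island-free regions under 1000 bp and 52.9% of those of 4000 bp and over, and its part in the relation was not tested. Among regions called in both libraries the longest quartile had a median 0.03 below that of the shortest.

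**Figure D3:**
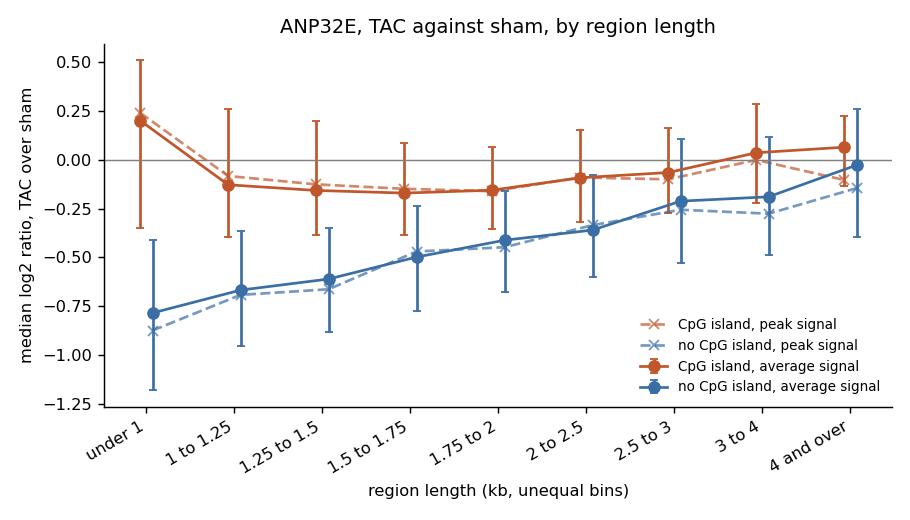
Median log2 ratio, TAC over sham, in bins of region length (kb, unequal bins); circles with interquartile bars give average signal and crosses peak signal. Island-free regions (blue) run from -0.78 under 1 kb to -0.03 at 4 kb and over, and island-bearing regions (orange) stay between -0.17 and 0.20.

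The number of intervals merged into a region restates the calls, because every region called in 1 library held 1 interval and every region called in both held at least 2. Regions of 1 interval (n = 5644) had a median of -0.41, those of 2 intervals (n = 2735) -0.09 and those of 3 or more (n = 65) 0.01. The region with the most intervals, 5, lay over Jund, an AP-1 transcription factor, and had 10.3 in TAC and 10.5 in sham. The longest region, over Midn, had 11.9 in TAC and 9.24 in sham (0.33), and the second, over Tenc1, had 9.54 in TAC and 11.0 in sham (-0.18). The 2 longest regions thus lay on either side of 0.

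The gene bodies of the contractile apparatus carried some of the lowest ratios, and nearly all of these regions had no island and were called in sham only. Myh6, encoding the adult cardiac myosin heavy chain, had 8 gene-body regions. Their average signal ran from 2.91 to 4.48 in TAC and from 7.75 to 9.11 in sham. Their ratios ran from -1.29 to -0.73 (median -0.95, or -0.68 relative to the shift). All 8 were called in sham only, a choice that by itself favours lower values in TAC. The 4224 regions called in sham only had medians of 5.47 in TAC and 8.18 in sham, and 45.9% were at least 1.5-fold lower. All 8 were at least 1.5-fold lower by average signal, and the peak value was lower in 7 and higher in 1 (16 in TAC and 14 in sham). Its promoter region, at -1060 bp from the start, had 5.51 in TAC and 8.32 in sham (-0.52). Atp2a2, encoding the sarcoplasmic calcium pump SERCA2, had 7 gene-body regions between 2.32 and 3.89 in TAC and between 7.06 and 9.25 in sham, with ratios of -1.37 to -0.80 and peak ratios of -1.32 to -0.38. Upstream of the same gene, at -8521 bp from the start, a region called in both libraries had 8.09 in TAC and 7.52 in sham (0.09).

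Other cardiomyocyte genes gave like values. Ttn, encoding the sarcomeric spring titin, had 3 gene-body regions of 2.62 to 3.08 in TAC and 6.44 to 7.13 in sham, and a promoter region of 4.00 in TAC and 8.80 in sham. Ryr2, the calcium release channel, had 2 regions in its body, with 2.00 in TAC and 6.85 in sham in 1 and 3.96 in TAC and 6.73 in sham in the other. Pln, encoding the SERCA inhibitor phospholamban, had 3.04 in TAC and 8.78 in sham at its promoter (-1.27). Myh7, the fetal myosin heavy chain, had no promoter region and 1 gene-body region with 4.17 in TAC and 7.88 in sham (-0.78). The natriuretic peptide genes Nppa and Nppb, textbook markers of cardiac stress, had no listed region.

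**Figure D4:**
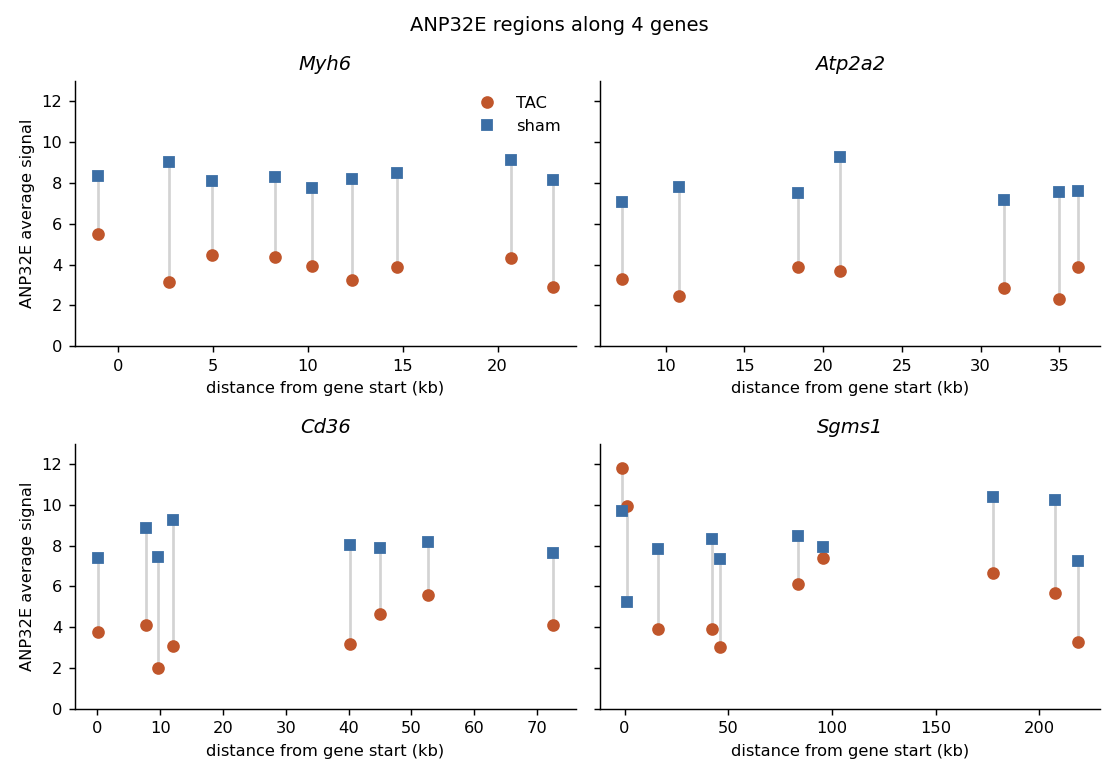
ANP32E average signal of every promoter and gene-body region of Myh6, Atp2a2, Cd36 and Sgms1 against distance from the gene start (kb); circles are TAC, squares sham, and grey lines join the pair of a region. TAC lies below sham in every region of the first 3 genes. It lies above sham at the Sgms1 promoter region (11.8 in TAC, 9.69 in sham), which is nearer to the start of 2700046G09Rik. The same holds at 1 Sgms1 gene-body region (9.93 in TAC, 5.25 in sham).

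In some of the genes with many regions within them, promoter and body parted. Sgms1, encoding a sphingomyelin synthase, had 9 gene-body regions, of which 8 were below 0 down to -1.05. The other, island-bearing and 1087 bp into the gene, had 9.93 in TAC and 5.25 in sham (0.81). The promoter region had 11.8 in TAC and 9.69 in sham (0.26). It lay at -992 bp from the Sgms1 start and nearer to another start, 230 bp into 2700046G09Rik. Cd36, the fatty acid transporter, had 7 gene-body regions of 2.00 to 5.57 in TAC and 7.45 to 9.27 in sham, and a promoter of 3.79 in TAC and 7.39 in sham, so both parts were lower. In Nfia, a transcription factor gene, 9 of 11 gene-body regions were below 0 (median -0.37, or -0.10 relative to the shift, from -1.25 to 0.35). In Arid5b, Mbnl2 and Ssh2 all 8, 7 and 8 gene-body regions were below 0, with medians of -0.58, -0.70 and -0.92. Among all 1975 gene-body regions, 1536 were below 0, so most gene-body regions of any gene lay there. Nfia, Arid5b and Ssh2 had no promoter region, and that of Mbnl2 stood at -0.04. Over the 535 genes with both kinds of region, the median ratio was -0.51 in the body and -0.11 at the promoter, and the body was lower in 391 (73.1%), or in 367 (68.6%) by peak value. In the 63 genes with both kinds called in both libraries the medians were -0.02 in the body and -0.03 at the promoter, and the body was lower in 34.

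Gene groups were read from 22 lists. Beside each list stand the values over all regions of the same kind, which were -0.14 with 214 of 4685 higher (4.57%) and 464 lower (9.90%) for promoters, and -0.48 with 124 of 1975 higher (6.28%) and 830 lower (42.0%) for gene bodies. Genes of the sarcomere and Z-disc had 29 gene-body regions with a median of -0.93, 25 of them lower and 0 higher, and 15 promoters with a median of -0.52, 6 lower and 0 higher. Csrp3, a Z-disc LIM protein, had 1.86 in TAC and 7.19 in sham in the lower of its 2 gene-body regions (-1.52), and Pdlim5, another Z-disc protein, 2.25 in TAC and 7.46 in sham (-1.38). At the other end Tmod1, a capping protein of thin filaments, had 8.52 in TAC and 5.98 in sham at its promoter (0.45). Calcium-handling and channel genes parted by position, with 30 gene-body regions at -0.76, of which 21 were lower and 0 higher, and 14 promoters at -0.04, or 0.22 relative to the shift, of which 4 were lower and 0 higher. Camk2d, the cardiac calmodulin kinase, had 2.04 and 2.12 in TAC and 7.44 and 7.5 in sham in the 2 regions of its body (-1.47 and -1.45), and 9.56 in TAC and 11.9 in sham at its promoter (-0.29).

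Fatty acid oxidation genes had 13 gene-body regions at -0.96, with 11 lower, and 19 promoters at -0.28, with 3 lower and 1 higher. Their gene-body regions belonged to 5 genes, and 7 of the 13 to Cd36. The lowest, within Cd36, had 2.00 in TAC and 7.45 in sham (-1.49). Cardiac transcription factor genes had 33 gene-body regions at -0.64, with 18 lower, and 11 promoters at 0.02, where the peak median was -0.32. Mef2c, a MADS-box factor of heart muscle, had its lowest at 2.87 in TAC and 7.38 in sham (-1.11). Signalling and growth genes had 27 gene-body regions at -0.54, with 11 lower, and 23 promoters at 0.13. Rictor, a subunit of mTOR complex 2, had 8.54 in TAC and 3.19 in sham at its promoter (1.19). Hypertrophy stress genes had 16 gene-body regions at -0.52 and 13 promoters at -0.10, or 0.16 relative to the shift.

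Non-myocyte and growth groups were mixed within gene bodies. Matrix and TGF-beta genes had 14 promoters at 0.34, of which 1 was past 1.5-fold and 0 were lower, and 19 gene-body regions at -0.40. The gene-body regions went both ways, since 6 called in TAC only had ratios of 0.47 to 0.71 and 13 called in sham only had ratios of -0.87 to -0.06. Timp2, an inhibitor of matrix metalloproteinases, had 9.10 in TAC and 4.51 in sham at its promoter (0.87). Endothelial genes had 19 gene-body regions at -0.11, which is 0.16 relative to the shift, and 3 were higher and 7 lower. Pecam1, an endothelial adhesion molecule, held 5 of them, and its ratios ran from -0.17 to 1.45, with 7.51 in TAC and 2.12 in sham at the highest, while its promoter had 5.10 in TAC and 8.22 in sham (-0.60). Flt4, the lymphatic growth factor receptor, had 7.80 in TAC and 2.80 in sham at its promoter (1.21), and Tek, the angiopoietin receptor, 3.16 in TAC and 7.70 in sham in its body (-1.06). Immediate early genes had 26 promoters at 0.12, with 1 higher and 0 lower, although the peak median was -0.03. Called in both libraries were 21 of them, against 2176 of all 4685 promoter regions (46.4%). Cell cycle genes had 12 promoters at 0.19, with 2 higher and 0 lower, and 9 gene-body regions at -0.17, or 0.09 relative to the shift. Ccnd3, encoding cyclin D3, had 8.55 in TAC and 3.80 in sham in 1 region of its body (0.99), and Cdk6, its kinase partner, 2.13 in TAC and 6.83 in sham in its body and 9.36 in TAC and 5.99 in sham at its promoter.

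**Figure D5:**
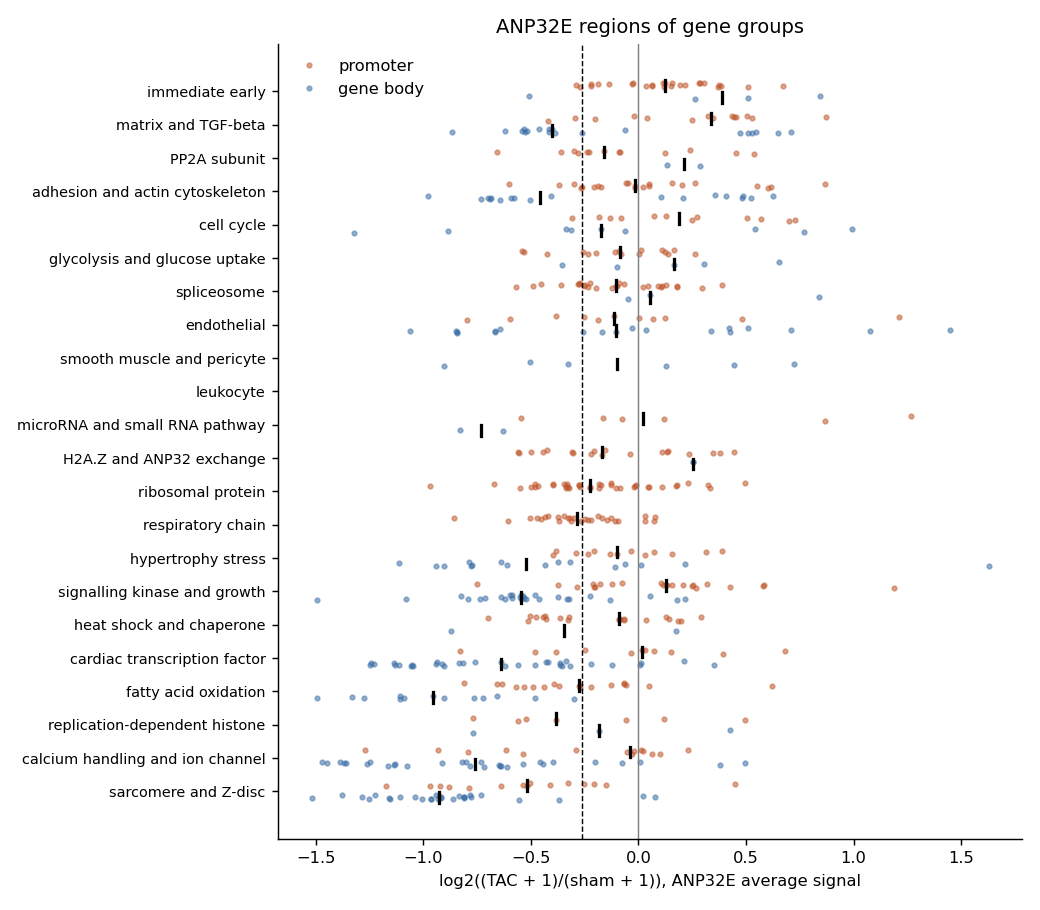
Log2 ratio of ANP32E average signal, TAC over sham, for each promoter (orange) and gene-body (blue) region of 22 gene lists; black ticks are list medians, the dashed line the median of all regions and the solid line 0. Gene-body regions of sarcomere, calcium, fatty acid and cardiac transcription factor genes lie mostly to the left, at medians of -0.93, -0.76, -0.96 and -0.64; the leukocyte list had no promoter or gene-body region.

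Broadly expressed groups were represented mostly by promoters, with medians on either side of that of all promoters. The medians were -0.28 for 28 respiratory chain, -0.22 for 39 ribosomal protein, -0.10 for 27 spliceosome, -0.09 for 21 chaperone and -0.09 for 16 glycolysis promoters, with between 0 and 2 lower and 0 higher in each. Relative to the shift these were -0.02, 0.04, 0.16, 0.17 and 0.18. Adhesion and cytoskeleton genes had 22 promoters at -0.02, or 0.25 relative to the shift, and 18 gene-body regions at -0.46, with 1 higher and 7 lower. List values went partly with the calls, since a region called in sham only tends to be lower in TAC by that choice. Over the 1306 island-free gene-body regions called in sham only, the median was -0.70, with 805 lower (61.6%). There the sarcomere list had -0.94 (25 of 26 lower), calcium handling -0.82 (21 of 25) and fatty acid oxidation -1.02 (11 of 12). Cardiac transcription factors had -0.91 (18 of 24), while matrix genes had -0.46 (2 of 13) and signalling genes -0.59 (11 of 20). Of the 29 sarcomere gene-body regions 26 were called in sham only, against 1385 of all 1975 gene-body regions (70.1%). The 3 sarcomere gene-body regions called in both had a median of 0.02. Gene-body regions called in both had 0.09 for calcium-handling (n = 2), -0.06 for cardiac transcription factor (n = 4) and -0.18 for signalling genes (n = 4). The 8 matrix promoters called in both had 0.0084, against 0.34 for all 14.

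Markers of the cell types of the heart were unequally represented. Of 9 cardiomyocyte markers, 7 had a promoter or gene-body region, and all 20 such regions were called in sham only. That call by itself favours lower values in TAC. It was made for 70.1% of all gene-body regions and 35.1% of all promoter regions. The 20 marker regions, 9 of them at Myh6, had 2.00 to 5.51 in TAC and 6.44 to 9.11 in sham. Their summed signals were 72.6 in TAC and 157.9 in sham. Of 8 endothelial markers 6 had regions, 16 in all, with sums of 102.8 in TAC and 125.3 in sham. Of these 16 regions 11 were called in sham only. For comparison, the sums over all ANP32E regions were 60648 in TAC and 71564 in sham. Only Pdgfra among 8 fibroblast markers and only Notch3 among 8 smooth muscle and pericyte markers had a promoter or gene-body region. None of 8 leukocyte markers had a promoter or gene-body region, and 2 had a region beside the gene. The part of cell composition in the ratios was not tested.

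The genes of ANP32E biology itself lay on either side of the general shift. Ppp2ca, encoding a catalytic subunit of PP2A, had 6.96 in TAC and 11.6 in sham at its promoter (-0.66, peak -0.86). The 13 PP2A promoters had a median of -0.16, or 0.10 relative to the shift. The regulatory subunit gene Ppp2r2d had 9.78 in TAC and 6.43 in sham (0.54), where the peak ratio was -0.07. Among 19 promoters of the H2A.Z exchange list the median was -0.17, or 0.09 relative to the shift. Genes of complexes known to handle H2A.Z stood on either side of 0. Ruvbl1, a helicase subunit, had 5.62 in TAC and 8.73 in sham (-0.56), Ing3, a subunit of the NuA4/TIP60 complex, 5.98 in TAC and 9.30 in sham (-0.56), and Epc2, of the same complex, 10.6 in TAC and 7.94 in sham (0.38). Anp32a, a relative of Anp32e, had 10.3 in TAC and 7.31 in sham (0.44). Anp32e had 6.36 in TAC and 8.13 in sham at its promoter and 6.51 in TAC and 11.2 in sham in an island-bearing region beyond its end (-0.70). H2afz had no ANP32E region.

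The H2A.Z table, with 1 library per condition and no label that ties its hearts to those of ANP32E, divided the ANP32E regions further. Of the 8444 ANP32E regions 7840 overlapped an H2A.Z region by at least 1 bp, and these had a median ANP32E ratio of -0.24 raw and 0.03 relative to the shift, and 393 of them were higher and 1617 lower. The 604 regions without overlap had medians of 4.09 in TAC and 7.58 in sham and a median ratio of -0.78, with 26 higher and 399 lower. Of the 604, 579 had no island, and they stood at -0.79, against -0.48 for 3116 island-free regions that did overlap. Of these 579, 510 were called in sham only, where the medians were -0.85 without H2A.Z and -0.62 with it. Of the 31098 H2A.Z regions 540 (1.74%) were at least 1.5-fold higher in TAC and 1218 (3.92%) lower. The H2A.Z ratio at overlapped regions was itself close to 0, with medians of -0.01 at island-bearing and -0.07 at island-free ANP32E regions. Over 7840 regions the ANP32E and H2A.Z ratios of average signal had a Pearson r of 0.32 and a Spearman rho of 0.25, and those of peak signal 0.17 and 0.13. These points share their 4 libraries.

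The lowest region of the stronger 50% was at a small RNA gene. Rnu1a1, a U1 spliceosomal RNA gene, had 4.62 in TAC and 12.9 in sham (-1.31), and Rny1, a Y RNA gene, 5.43 in TAC and 12.4 in sham (-1.06). Both belong to families with near-identical copies, so the placing of reads there is uncertain. Trim7, encoding a ubiquitin ligase, had the lowest island-free gene-body region of this set, 8123 bp from its start, with 5.98 in TAC and 13.3 in sham (-1.03). The highest of that kind was in Clec16a, an autophagy regulator, 193019 bp into the gene, with 9.89 in TAC and 5.57 in sham (0.73). The strongest regions of each library were also compared. Those strongest in TAC were beside the Mir23a cluster (15.5 in TAC, 11.4 in sham), and at Brd2 (15.3 in TAC, 14.1 in sham), Junb (15.2 in TAC, 11.5 in sham) and Zfp36l2 (15.2 in TAC, 11.5 in sham). Those strongest in sham were 4930526I15Rik (13.7 in TAC, 18.5 in sham), Jmjd6, a lysyl hydroxylase gene (11.5 in TAC, 16.8 in sham), and 2 regions with no listed gene that were over 1.5-fold lower in TAC. The first of these (chr1:86486562-86488639) had 11.1 in TAC and 18.4 in sham (-0.67), and the other (chr8:126734580-126737682) had 9.76 in TAC and 17.2 in sham (-0.76).

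Average and peak signal parted at a few regions. At Iws1, a transcription elongation factor gene, average signal was 7.70 in TAC and 9.40 in sham (-0.26) while peak signal was 33 in TAC and 18 in sham (0.84). Near Atoh8 average signal was 8.0 in TAC and 4.98 in sham (0.59), and peak signal 14 in TAC and 24 in sham (-0.74). Near Srsf5 both were lower, at 2.12 in TAC and 6.05 in sham by average and 3 in TAC and 19 in sham by peak.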

How the data were processed

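Chromatin from whole hearts of TAC and sham-operated mice was immunoprecipitated for ANP32E, 1 library each. The authors deposited 1 table of merged regions with, per library, an average and a peak signal, whether the region was called, its length, its numbers of merged intervals and CpG islands, and the listed genes with distances to their starts. BWA, SICER and mm10 are named in the submitters' processing notes, without a version of either tool. How signal was scaled, and the depth of each library, are unknown, so no counting interval is given.

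From these signals log2((TAC + 1)/(sham + 1)) was computed for average and peak values over all 8444 regions, raw and after subtracting the median, and regions past 1.5-fold were counted. Promoters lie within 1000 bp of a start or 50% of the region's length. RefSeq promoter windows (GRCm38.p6) were matched by gene and overlap. Alternatives were pseudocounts of 0.1 and 5, 2-fold, 5000 bp, the stronger 50% of regions, regions called in both, and autosomes. On simulated data, known changes put on randomly picked regions came back in their median ratio. Counts and region classes were not checked in this way. Python 3.11.15, numpy 2.4.6, pandas 2.3.3 and matplotlib 3.10.9 were used.

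Regions and lists were chosen with earlier results of these data known. Named were the highest and lowest ratios in the stronger 50% that peak values shared, among island-free gene bodies and among distant islands, the 2 highest and 2 lowest of each list, the genes with most regions, 12 fixed genes, the longest, strongest and most interval-rich regions, and those where average and peak differed most. The H2A.Z libraries entered only through the overlap of regions and through their own ratios of TAC over sham, and the input was not used. Some regions and genes that the rule names are not reported here.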

Additional observations from a re-analysis of the deposited data

How the results depend on the processing

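No paired analysis was possible because each condition had 1 ANP32E library, and for the same reason no replicate could be left out. Peak values, a pseudocount of 0.1 and autosomes alone left every result over all regions and classes within tolerance. Splits by CpG island, splits by calls in 1 library, the distance comparison and the lists restricted to regions called in both were added after seeing the data. The median of all regions (-0.26) was -0.13 in the stronger 50% and -0.088 among regions called in both. The 419 higher regions became 127 with a pseudocount of 5, 86 in the stronger 50% and 93 at 2-fold, and the 2016 lower became 658, 288 and 535. Relative to the shift the 1046 higher became 395, 201 and 226, and the 936 lower 128, 112 and 167.

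The difference of island-bearing minus island-free regions (0.42) was 0.27 with a pseudocount of 5, 0.14 in the stronger 50%, 0.059 among regions called in both, 0.28 in sham only and -0.049 in TAC only, a reversal. Promoters minus gene bodies (0.34) gave 0.22, 0.047 and -0.0052 under the first 3 settings, -0.18 with an island and 0.21 without, so the sign turned among regions called in both and among island-bearing regions. Longest minus shortest quartile (0.36) gave 0.23, -0.015 and -0.025, and 0.0054 with an island. Regions of 2 or more intervals minus 1 (0.32) gave 0.21 with a pseudocount of 5 and 0.13 in the stronger 50%. Islands 500 to 2500 bp into genes minus those just upstream (0.41) gave 0.29, 0.30 and 0.15. The causes were not tested. Over all its regions the calcium-handling list (-0.65) turned to 0.0097 among regions called in both. There the sarcomere list (-0.86) gave -0.25, fatty acid oxidation (-0.49) -0.20, hypertrophy stress (-0.31) -0.062, cardiac transcription factors (-0.38) 0.013, H2A.Z exchange (-0.17) 0.13, chaperones (-0.35) -0.091, histones (-0.51) 0.029 and signalling (-0.31) -0.011. By peak value the sign turned at Atoh8 (-0.74), at 1 Myh6 region (0.18), and at regions on chromosomes 7 (-0.55) and 8 (-0.49). With 1 library of unknown depth per condition, the spread between hearts is unknown.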
